A study of Mus musculus with 6 samples.

Results

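The fatty acid binding proteins Fabp1 to Fabp7 were followed in the livers of mice on a control or a high-fat diet. They are 7 of the 12393 genes that the platform annotation names on both array designs of the series, and they were chosen by symbol. Every probe set assigned to exactly 1 of these symbols was kept, which gave 12 probe sets on both designs and 1 more on the larger design, 13 in all. Fabp4 had 4 probe sets, Fabp1, Fabp3 and Fabp5 had 2 each, and Fabp2, Fabp6 and Fabp7 had 1 each. The second Fabp3 probe set was present at week 4 alone.

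The mice were of the inbred strain C57BL/6J and were assigned at random to the control diet (C) or the high-fat diet, which the design text of the series calls HFC. Liver RNA was profiled at weeks 2, 4 and 10 with 1 Affymetrix array per diet and week, 6 arrays in all, to follow the response of the liver to the diet over time. All mice are labelled as the same strain, and no transgene or deletion is named. The labels used here give no sex, no age, no time of day and no composition of either diet, and they do not say whether an array held 1 mouse or a pool. The arrays of week 4 have a larger design than those of weeks 2 and 10, so levels were set across weeks between weeks 2 and 10 alone.

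The family consists of small cytosolic proteins, each a barrel of beta strands that closes over a hydrophobic ligand. They keep long-chain fatty acids, bile acids or related lipids in solution and carry them between membranes, organelles and the nucleus, where fatty acids are ligands of the PPAR receptors. Fabp1 is the abundant form of the hepatocyte, Fabp2 that of the small intestine, Fabp3 that of heart and skeletal muscle and Fabp4 that of adipocytes, while Fabp6 carries bile acids in the ileum. Fabp5 is known from skin, macrophages and other tissues and Fabp7 from the developing brain. Fabp1 and Fabp4 are textbook targets of PPAR alpha and PPAR gamma, respectively.

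Stretches of 250 bases before the annotated start of transcription were available for 5 of the 7 members (RefSeq, build GRCm38.p6). The stretches of Fabp1 and Fabp2 are shown because these 2 members had diet differences of opposite sign at each week on the probe sets tested. The Fabp1 stretch is chr6:71199629-71199878 on the plus strand, with the half-site pair described next in capitals. The Fabp2 stretch is chr3:122894822-122895071 on the plus strand and is printed with no capitals.
Fabp1: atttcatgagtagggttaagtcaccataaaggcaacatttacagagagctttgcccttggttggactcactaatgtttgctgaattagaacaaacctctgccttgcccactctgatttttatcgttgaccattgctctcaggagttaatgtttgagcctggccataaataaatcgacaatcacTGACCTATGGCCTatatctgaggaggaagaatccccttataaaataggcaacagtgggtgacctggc
Fabp2: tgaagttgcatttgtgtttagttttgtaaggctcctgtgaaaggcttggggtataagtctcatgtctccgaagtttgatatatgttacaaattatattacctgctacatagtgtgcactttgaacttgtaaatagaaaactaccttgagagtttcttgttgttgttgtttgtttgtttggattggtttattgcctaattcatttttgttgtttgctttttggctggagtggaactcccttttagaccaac

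The capitals mark 2 copies of the half-site AGGNCA with 1 base between them, read on the opposite strand, from 67 to 55 bases before the start. This is the layout of elements bound by PPAR receptors together with RXR. Of 32851 promoter stretches of the same length, 111 (0.338%) held such a pair on either strand, and Fabp1 was the 1 member of 5 that did. The single half-site AGGTCA, which overlaps that pair, was in 14% of all stretches and in those of Fabp1 and Fabp7. A TATA box (TATAAA) was in 12.4% of all stretches and in those of Fabp1 and Fabp6, and in Fabp1 it lay from 30 to 25 bases before the start. The letters CCAAT, searched on both strands as were the others, were in 33.8% of all stretches and in those of Fabp2 and Fabp7. The E-box CACGTG was in 6.02% of all stretches and in those of no member. These are matches of letters, and no binding was measured. In base composition, the Fabp2 stretch had 35.6% G and C and the Fabp1 stretch 42.8%.

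The deposited values are signal intensities without replicates, so a difference within a week has no test. Each array was centred on its median, and signals below 155.3, the 40th percentile of all values, were set to that floor. Scaled signals are given here before the floor is applied, and a fold with 1 array at the floor is given as "at least". Of the 13 probe sets, 7 were above the floor on all of their arrays and 2 on none. The share of all probe sets above the floor was from 62.0% to 65.8% on the 4 arrays of weeks 2 and 10 and was 51.7% and 50.4% at week 4. The ratio of 3' to 5' signal of actin, a sign of RNA quality, ranged from 1.17 to 2.35 over the 6 arrays. That of pyruvate carboxylase was 9.64 on high fat against 3.83 on control at week 2, 7.78 against 4.26 at week 4, and 2.39 against 4.01 at week 10, where the control array had the higher ratio.

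Among the 5 members tested, Fabp5 and Fabp2 had higher signals on the high-fat diet at all 3 weeks, by 3.57-fold and 2.16-fold on average. Fabp1 had lower signals at all 3 weeks on the probe set tested, by 1.24-fold on average. Fabp4 and Fabp7 had no common direction over the weeks, and Fabp3 and Fabp6 were near or below the floor. No member passed the test over the 3 weeks after adjustment.

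**Figure D1:**
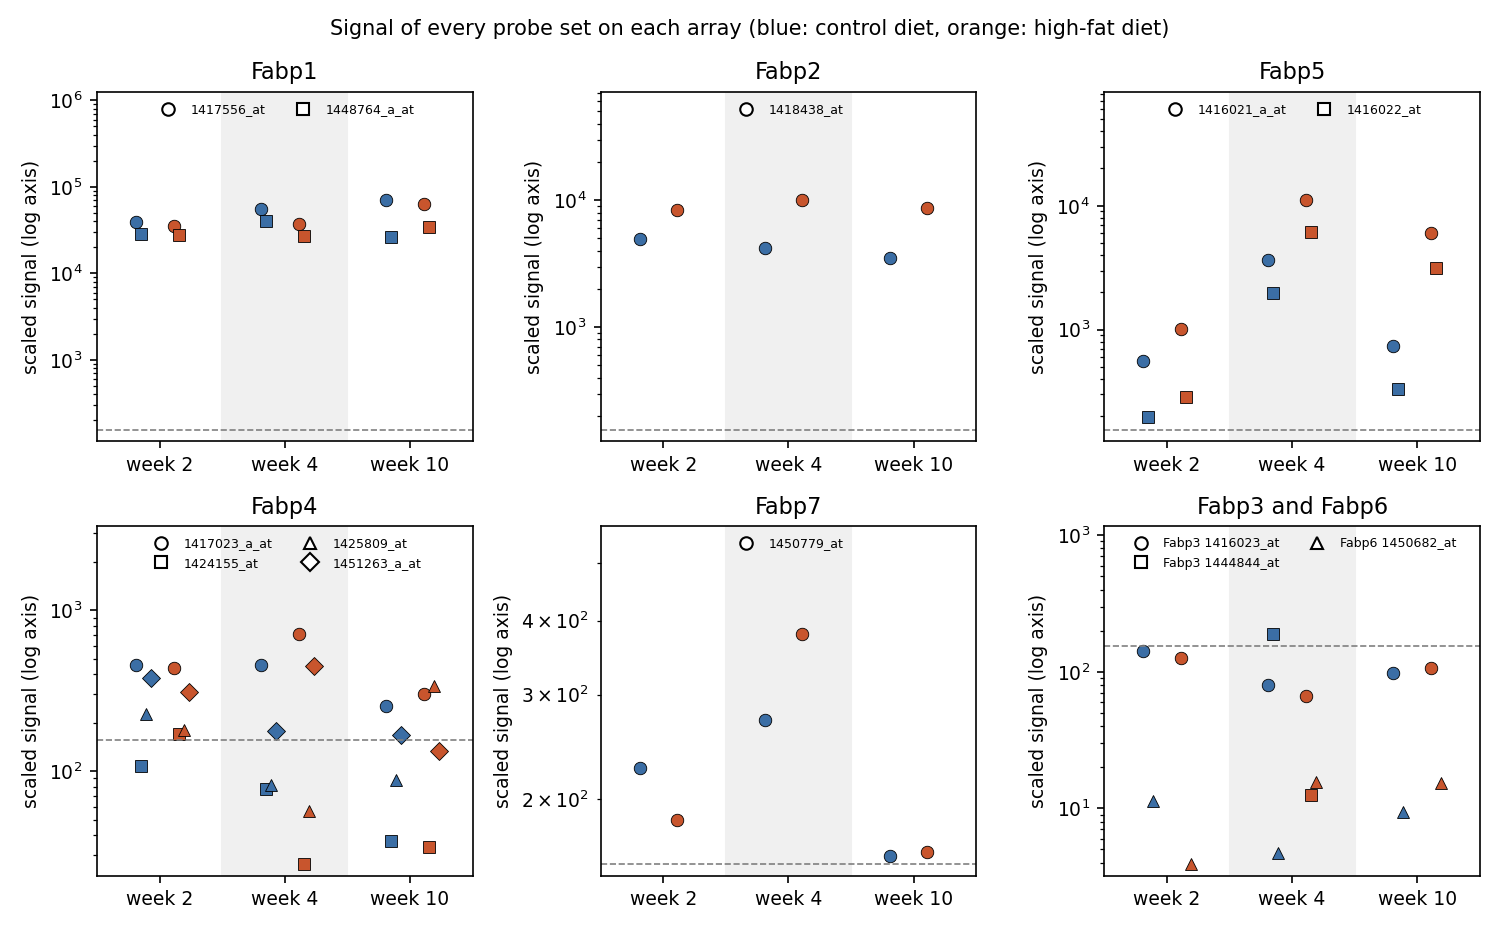
Scaled signal (log axis) of each of the 13 probe sets on each array, with the control diet in blue and the high-fat diet in orange, a symbol for each probe set and the floor of 155.3 as a dashed line. The orange points of Fabp2 and Fabp5 lie above the blue points of the same probe set at every week, and the shaded week 4 is on another array design and is compared within the week only.

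Fabp5 binds long-chain fatty acids and can deliver them to nuclear receptors. At week 2 the signal of its probe set 1416021_a_at was 560.1 on the control diet and 1016 on the high-fat diet, a 1.82-fold difference. At week 4 it was 3663 on the control diet and 11193 on the high-fat diet, or 3.06-fold higher. At week 10 it was 743.8 against 6081, or 8.18-fold higher. Within each week the high-fat array was thus the higher. The log2 differences were 0.86, 1.61 and 3.03.

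The second Fabp5 probe set, 1416022_at, gave the same order of the diets within each week on the scaled signals. On the values as deposited its order at week 2 was reversed, with 232.5 on control and 213.2 on high fat. Its scaled signal was 197.0 on the control diet and 287.0 on the high-fat diet at week 2, or 1.46-fold higher. It was 1991 against 6189 at week 4, or 3.11-fold higher, and 335.1 against 3161 at week 10, or 9.43-fold higher. Here the control signal of week 10 was above the high-fat signal of week 2, so the diets overlapped across these weeks. Both probe sets had their smallest diet difference at week 2 and their largest at week 10. Both are readouts of 1 gene on the same arrays and are not independent.

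The difference between weeks 2 and 10 lay mostly on the high-fat side. On the high-fat diet the signal of 1416021_a_at was 5.98-fold higher at week 10 than at week 2, and on the control diet 1.33-fold higher. For 1416022_at the ratios were 11.01-fold on the high-fat diet and 1.70-fold on the control diet. Of the 8846 genes tested, 496 (5.61%) were at least 2-fold higher at week 10 than at week 2 on the high-fat diet and 262 (2.96%) on the control diet. With 1 array per diet and week, this difference between the diets was not tested.

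In the fit across all genes with week as a block (limma), the mean Fabp5 difference was 1.83 ± 0.351 on the log2 scale (SE, n = 3 weeks). The 95% limits, 1.05 to 2.62, correspond to 2.07-fold and 6.13-fold. In limma the variance of each gene is drawn toward that of all genes. The SEs and limits given here and below use that variance. For Fabp5 they are narrower than its 3 weekly differences alone would give. The unadjusted p was 0.000378, the fifth lowest of 8846 genes, and the Benjamini-Hochberg adjusted p from limma was 0.646. The mean difference was the third highest of all genes tested, and by week the rank from the top was 214, 10 and 2. The 3 weekly differences had an SD of 1.10, against 0.31 for Fabp2, and this spread enters the test as error. The adjusted limma p was 0.00488 without week 2 (mean 2.32) and 0.00372 on the values as deposited (mean 1.65), so the call turned on the weeks used and on the scaling. The deposited control array of week 2 is scaled higher than the other arrays, and on those values the Fabp5 difference of week 2 was 0.19. Without week 10 the mean difference was 1.24, with an adjusted p of 0.0631. Over all 14 alternatives the adjusted p ranged from 0.00372 to 1.0.

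Fabp2, which takes up fatty acids in enterocytes, was measured by 1418438_at. Its signal was 4959 on the control diet and 8373 on the high-fat diet at week 2, a 1.69-fold difference. At week 4 the signals were 4185 and 10088, or 2.41-fold higher, and at week 10 they were 3516 and 8728, or 2.48-fold higher. All 3 high-fat arrays were above the control array of their week. Between weeks 2 and 10 the high-fat signal differed by 1.04-fold, while the control signal was 1.41-fold lower at week 10.

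The mean Fabp2 difference over the weeks was 1.11 ± 0.222 (log2, SE, n = 3 weeks), with 95% limits of 0.62 and 1.61, or 1.54-fold to 3.04-fold. The unadjusted limma p was 0.000511, the seventh lowest, and the adjusted p was 0.646. The mean was the twelfth highest of 8846. Leaving out 1 week at a time gave means from 1.01 to 1.29 and adjusted p-values from 0.155 to 0.776, against 0.155 to 1.0 over all 14 alternatives, so this member had a narrower range than Fabp5.

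The only gene with an adjusted p under 0.05 was Krt23, a keratin above the floor on 3 of the 6 arrays (adjusted p of 0.0247, limma), so 1 of 8846 genes (0.0113%) was called and 0 of the 5 members. The 3 arrays above the floor for Krt23 were the high-fat ones, so it passed the filter through that diet. Its mean difference of at least 2.01 is therefore a bound. It was 3.59 with the floor at the 20th percentile, so its size depends on where the floor is set. Control values set to the floor do not vary, which also enters the p of Krt23. At an unadjusted p under 0.05, 361 genes (4.08%) passed, among them 2 of the 5 members, Fabp5 and Fabp2. Of all genes tested, 722 (8.16%) were higher on the high-fat diet at each of the 3 weeks, as were these same 2 members, and 1001 (11.3%) were lower at each week, as was Fabp1. The median of the mean differences over all genes was -0.03. The error behind these p-values is how much a diet difference varied from week to week, which joins time, animals and technique, with 2 residual degrees of freedom before the variance is shared across genes.

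At week 2 no tested member was at least 2-fold higher on the high-fat diet, against 107 genes (1.21%), and none at least 2-fold lower, against 140 (1.58%). At week 4 there were 2 members at least 2-fold higher, Fabp2 and Fabp5, against 62 genes (0.701%), and none 2-fold lower, against 80 (0.904%). At week 10 the same 2 members were at least 2-fold higher, against 343 genes (3.88%), and none at least 2-fold lower, against 347 (3.92%). The SD of the differences over all genes was 0.43, 0.36 and 0.57 at weeks 2, 4 and 10, the largest at week 10. Fewer probe sets were above the floor at week 4, and a gene at the floor on both arrays of a week has a difference of 0. This can lower the shares and the SD of week 4.

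**Figure D2:**
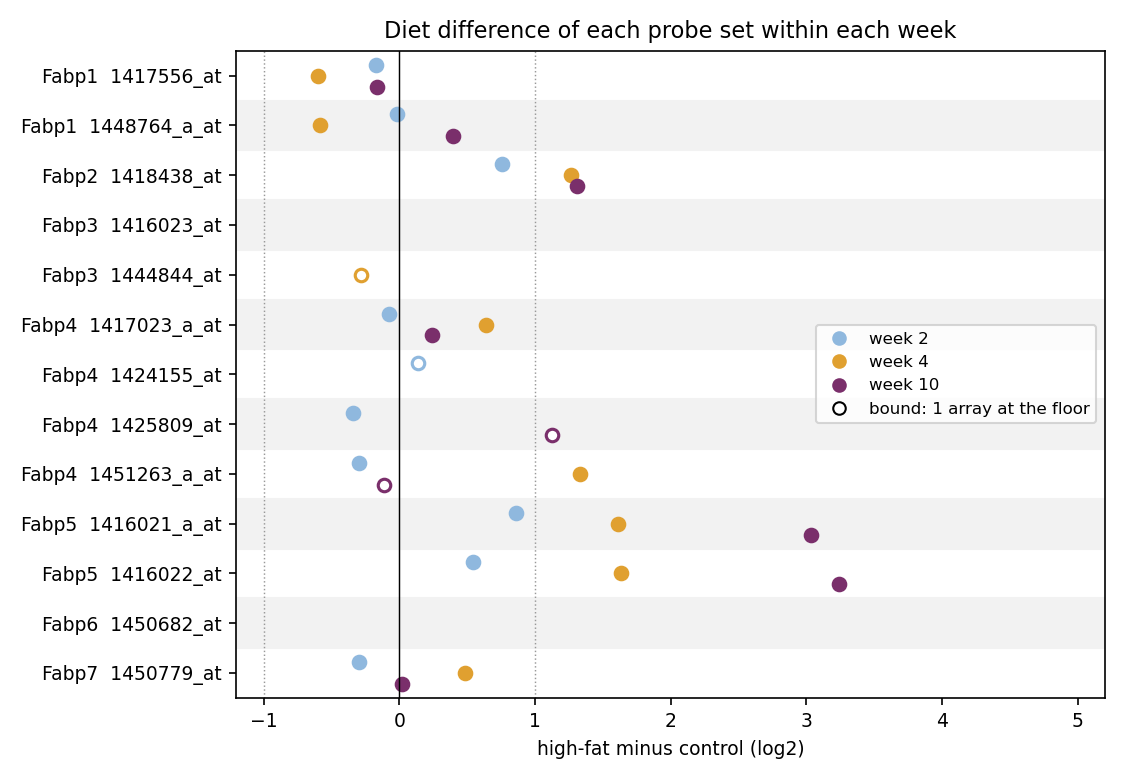
High-fat minus control difference (log2) of each probe set at weeks 2, 4 and 10, with open circles for bounds where 1 array was at the floor, no point where both were, and dotted lines at 2-fold. The points of both Fabp5 probe sets move to the right from week 2 (0.86 and 0.54) to week 10 (3.03 and 3.24), and those of Fabp2 lie between 0.76 and 1.31.

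**Figure D3:**
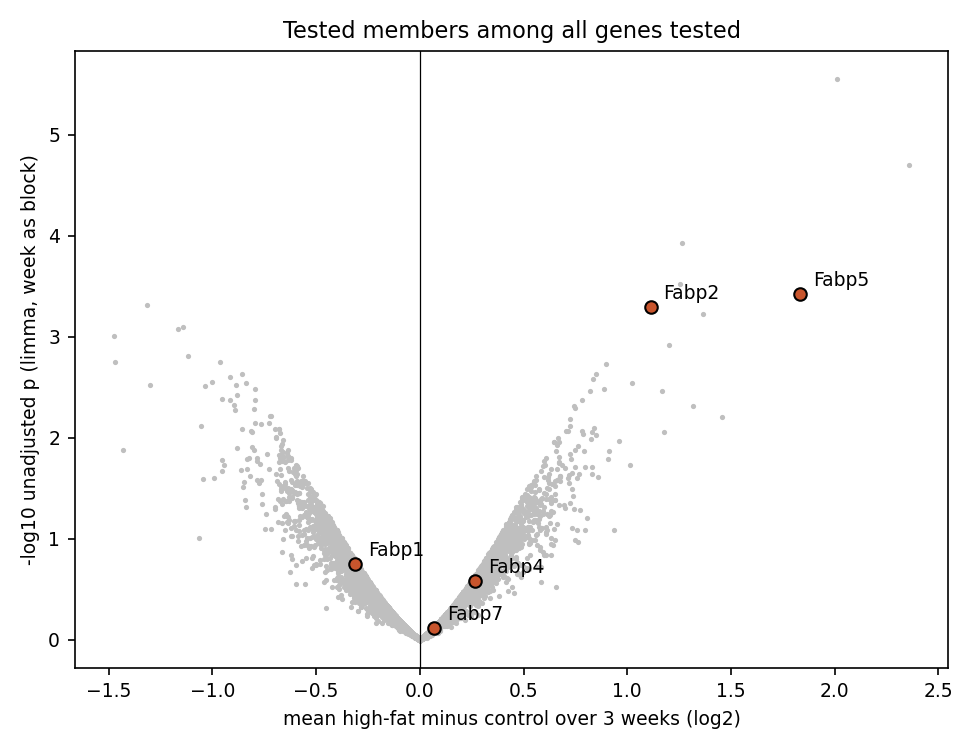
Mean high-fat minus control difference over the 3 weeks (log2) against -log10 of the unadjusted limma p for the 8846 genes tested (grey), with the 5 tested members in orange. Fabp5 and Fabp2 lie at the upper right, at 1.83 and 1.11, while Fabp1, Fabp4 and Fabp7 lie within the mass of the other genes.

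Fabp1, the main cytosolic fatty acid carrier of hepatocytes, was above the floor on all 6 arrays with both probe sets. The probe set 1417556_at read 39502 on the control diet and 35028 on the high-fat diet at week 2, or 1.13-fold lower. At week 4 it read 55734 and 36783, or 1.52-fold lower, and at week 10 it read 71118 and 63491, or 1.12-fold lower. The largest gap was thus at week 4. With the week 4 arrays centred over the larger design, the log2 difference of week 4 was -0.12, smaller than the -0.17 of week 2. On both diets this probe set was higher at week 10 than at week 2, by 1.80-fold on the control diet and 1.81-fold on the high-fat diet, which exceeds its diet difference at either of these weeks.

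The other Fabp1 probe set, 1448764_a_at, shared the week 4 difference but not that of week 10. It read 28194 versus 27898 on the control and high-fat diets at week 2, 40463 versus 26944 at week 4, and 26429 versus 34800 at week 10. Its log2 differences were -0.02, -0.59 and 0.40, so the 2 probe sets of this gene had opposite signs at week 10. It also lacked the difference between weeks 2 and 10 on the control diet, with a log2 value of -0.09 against 0.85 for 1417556_at.

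The mean difference of 1417556_at was -0.31 ± 0.217 (log2, SE, n = 3 weeks), with 95% limits of -0.79 and 0.17 and an adjusted limma p of 0.995. Its sign depended on the scaling, since quantile normalization gave 0.15 and a loess correction for brightness 0.016. In the same direction as Fabp1 on the main scaling, 8 of the 10 measured hepatocyte markers were lower on the high-fat diet at all 3 weeks. Of all genes tested, 11.3% were. All 10 markers were lower at weeks 4 and 10. Their median log2 differences were -0.07, -0.86 and -0.52 at weeks 2, 4 and 10, against -0.03, 0.00 and 0.02 over all genes tested. Examples are Alb, which encodes albumin, at a mean of -0.59, Tat, tyrosine aminotransferase, at -0.70, Ttr, transthyretin, at -0.53, and Apoa1 at -0.51. None of the 10 passed the adjusted test, and 3 had an unadjusted limma p under 0.05, against 4.08% of all genes. Their summed signal on control and high fat was 358605 versus 324233 at week 2, 441775 versus 241640 at week 4 and 624929 versus 452126 at week 10, and their part in the Fabp1 difference was not tested. The 10 markers were not recomputed under quantile normalization or loess, so whether their direction depends on the scaling, as that of Fabp1 did, was not tested. In whole liver, fewer cells of a type and less RNA per cell cannot be told apart.

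Fabp4, the carrier of adipocytes and of some macrophages, had 4 probe sets that did not share a direction, 3 of them below the floor on some arrays. The brightest, 1417023_a_at, was above it on all arrays and read 458.7 versus 435.8 on the control and high-fat diets at week 2, 457.3 versus 711.3 at week 4, and 254.9 versus 300.9 at week 10. The high-fat array was the higher at week 4 (1.56-fold) and week 10 (1.18-fold) and the lower at week 2 (1.05-fold). The mean difference was 0.27 ± 0.226 (log2, SE, n = 3 weeks), with 95% limits of -0.24 and 0.77 and an adjusted limma p of 0.995.

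Of the other Fabp4 probe sets, 1451263_a_at read 378.9 versus 308.2 at week 2, 177.6 versus 448.2 at week 4, and 168.1 versus 133.4 at week 10. Its week 4 difference of 2.52-fold had the same sign as that of 1417023_a_at, and at week 10 the high-fat array was the lower by at least 1.08-fold. The probe set 1425809_at read 227.3 versus 179.1 at week 2, was below the floor on both arrays of week 4, and read 87.7 versus 338.8 at week 10. It was at least 2.18-fold higher on the high-fat diet at week 10, where 1451263_a_at had the opposite sign. The fourth, 1424155_at, was above the floor on the high-fat array of week 2 alone, at 170.9. From week 2 to week 10 the signal of 1417023_a_at was 1.80-fold lower on the control diet and 1.45-fold lower on the high-fat diet.

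Fabp7, the brain form, was measured by 1450779_at just above the floor. It read 225.6 versus 184.1 on the control and high-fat diets at week 2, 271.6 versus 379.7 at week 4, and 160.4 versus 162.5 at week 10. The high-fat array was thus the lower at week 2 (1.23-fold), the higher at week 4 (1.40-fold), and within 1.02-fold of the control array at week 10. The mean difference was 0.07 ± 0.230 (log2, SE, n = 3 weeks), with 95% limits of -0.44 and 0.58 and an adjusted limma p of 0.999, and it turned to -0.088 on the values as deposited.

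Fabp3 and Fabp6 were not tested, because neither was above the floor on at least 3 arrays. Fabp3, the heart and muscle form, read from 66.5 to 140.9 with 1416023_at, below the floor on all 6 arrays. Its second probe set, 1444844_at, read 189.2 on the control array of week 4 and 12.4 on the high-fat array, which is at least 1.22-fold lower against the floor. Fabp6, the ileal bile acid carrier, read from 3.90 to 15.7 with 1450682_at on the 6 arrays. No diet difference can be given for Fabp6 or for 1416023_at at these signals.

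The tissues for which these proteins are named were checked through their defining markers. Of 10 measured enterocyte markers, 6 were below the floor on all arrays, among them Vil1, which encodes villin, and Lct, lactase, and Slc10a2, the ileal bile acid transporter. The 1 enterocyte marker tested was Mttp, which hepatocytes also express, with a mean difference of -0.049. Mttp made up most of the summed signal of the list, 5877 of 6512 on high fat and 5621 of 6232 on control at week 2. At week 4 the sum was 4047 on high fat versus 4014 on control and at week 10 it was 5278 versus 5827. Of 5 measured adipocyte markers, Adipoq, which encodes adiponectin, and Lep, leptin, were below the floor on all arrays. The adipocyte sum was almost all Car3, carbonic anhydrase 3, which alone read 9616 versus 10330 on control and high fat at week 2, 32676 versus 20489 at week 4 and 30361 versus 31693 at week 10. The other tested adipocyte markers were Slc2a4, with log2 differences of -1.06, 0.07 and -0.65, and Retn, resistin, with -0.58, 0.00 and -0.64, in which arrays at the floor make some values bounds. Of 12 muscle markers, 6 were below the floor on all arrays, including Mb, myoglobin, and Myh7, a cardiac myosin, and the sum on control and high fat was 1524 versus 1099 at week 2, 855.6 versus 343.3 at week 4 and 1451 versus 1558 at week 10. The 3 tested, Actc1, Atp2a1 and Ckm, were above the floor on 4 arrays each. At week 10, 2 of these were higher on high fat and 1 was lower. Of 8 measured markers of nerve and glia, S100b, Ncam1 and Slc1a3 were below the floor on all arrays, and the sum was 2175 versus 1874 at week 2, 1357 versus 933.4 at week 4 and 2343 versus 2964 at week 10. The 5 tested were Pmp22 and Nes, above the floor on 6 arrays, Sox10 on 5, Gfap on 4 and Mbp on 3. At week 10, 4 of these 5 were higher on high fat and 1 was lower.

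Markers of macrophages and Kupffer cells, cells in which Fabp4 and Fabp5 are known, were higher at week 10. On the high-fat array of that week all 13 tested markers had the higher signal, 3 of them at least 2-fold, against 3.88% of all genes. At week 4, 7 of the markers were higher, and at week 2, 4 were. Their median log2 difference was -0.10, 0.03 and 0.71 at weeks 2, 4 and 10, beside 0.86, 1.61 and 3.03 for Fabp5. The macrophage sum on control and high fat was 23252 versus 21025 at week 2, 34505 versus 33897 at week 4 and 15808 versus 26655 at week 10, and Itgam was below the floor on all arrays. Endothelial markers were also higher at week 10 (8 of 9 tested, median 0.44) and mostly lower at week 2 (7 of 9, median -0.49) and week 4 (6 of 9, median -0.25). The endothelial sum was 8350 versus 6703 at week 2, 9486 versus 8209 at week 4 and 6362 versus 9717 at week 10, with Vwf and Tie1 below the floor on all arrays. The part of either cell type in the week 10 difference of Fabp5 was not tested.

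The 3' to 5' ratio of pyruvate carboxylase was the higher on the high-fat diet at weeks 2 and 4 and the lower at week 10, and its part in the Fabp5 and Fabp2 differences was not tested. The hybridisation control bioD read 21253 on the control array of week 10 and from 3822 to 13606 on the other arrays, and whether it bears on the week 10 values was not tested. Collection time is not labelled, so the genes of the circadian clock are given here. Of 14 tested clock genes, 9 had an unadjusted limma p under 0.05, against 4.08% of all genes, and none passed the adjusted test. At all 3 weeks 6 were higher and 4 lower, against 8.16% and 11.3% of all genes. Dbp was above the floor on the 3 high-fat arrays alone, so its mean difference of at least 2.36 (adjusted limma p of 0.0887) is a bound and it passed the filter through that diet. The means of Nr1d1, Arntl and Nfil3, which were above the floor on all arrays, were 1.32, -1.32 and -1.04, and Nr1d1 had a difference of 0.00 at week 4. The part of the clock genes in the differences of the fatty acid binding proteins was not tested.

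The relatives of the family bind retinoids, fatty acids or myelin lipids, and of 9 listed, 7 had a probe set and 5 were measured on both designs. In the RefSeq order of chromosome 3, Fabp5, Pmp2, Fabp9, Fabp4 and Fabp12 follow one another with 2 other genes between Fabp5 and Pmp2. Fabp9, known from testis, was above the floor on 1 of 6 arrays, and Pmp2, the myelin form, and Fabp12 were below it on both arrays of week 4. Fabp2 is also on chromosome 3, and Fabp1 is on chromosome 6. Rbp7, a retinol binding protein, was the 1 relative tested, above the floor on 3 of 6 arrays, with a mean difference of 0.10 ± 0.227 (log2, SE, n = 3 weeks), and Rbp2, Crabp1 and Crabp2 were below the floor on all arrays.

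The genes that work beside these carriers in fatty acid uptake and activation did not share a direction. Of 14 tested, 1 was higher and 2 were lower at all 3 weeks, against 8.16% and 11.3% of all genes. None of the 14 passed the adjusted test, and the median of their mean differences was -0.07. Lpl, lipoprotein lipase, which frees fatty acids from circulating triglyceride, was the member with the largest difference. Its signals were 998.7 versus 1711 on the control and high-fat diets at week 2, 870.5 versus 3936 at week 4, and 862.3 versus 1256 at week 10. The mean was 1.17 ± 0.307 (log2, SE, n = 3 weeks) with an adjusted limma p of 0.995, and unlike Fabp2 and Fabp5 it was largest at week 4. Cav1, the coat protein of caveolae, had a mean of 0.61 with 1 array at the floor, the transporter gene Slc27a1 -0.34, and Cd36, the fatty acid translocase, 0.27.

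Targets of PPAR alpha, the receptor of which Fabp1 is a textbook target, had a median of -0.16 over 17 tested genes. At week 10, 14 of the 17 were lower on the high-fat diet and 3 at least 2-fold lower, the latter against 3.92% of all genes. Over the 3 weeks 2 were higher and 1 lower throughout, against 8.16% and 11.3% of all genes. The median at week 10 was -0.45, against 3.03 for Fabp5. For Fabp1 itself it was -0.16 on the probe set tested and 0.40 on the other, so its sign at week 10 is not settled. Pdk4, a kinase that shuts off pyruvate dehydrogenase, had a mean of -0.96, the hormone gene Fgf21 -0.63, Vnn1, pantetheinase, 0.49, and Acot2, an acyl-CoA thioesterase, -0.45, and none of the 17 passed the adjusted test. Arrays at the floor enter the means of Fgf21 and Acot2. PPAR gamma targets of fatty liver had a median of 0.27 over 9 tested genes, and none passed the adjusted test. Of these, 1 was higher at all 3 weeks and none lower, against 8.16% and 11.3% of all genes. Beside Lpl, the largest means in that list were 0.83 for Fitm1, a protein of lipid droplet formation, 0.58 for Mogat1, an acyltransferase, and -0.55 for Slc2a4, the insulin-responsive glucose transporter, each with at least 1 array at the floor.

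The receptors and their partners had a median of -0.01 over 9 tested genes, with none past the adjusted test. At all 3 weeks 2 were higher and 1 was lower, against 8.16% and 11.3% of all genes. The largest means were -0.30 for Rxrg, which had 1 array at the floor, 0.28 for Rxrb, -0.26 for Nr1h3, the liver X receptor alpha, and 0.22 for the coactivator gene Ppargc1a. For Ppara itself the log2 difference was 0.49 at week 2, then 0.40 and -0.54. These means were all smaller than those of Fabp2 and Fabp5.

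Genes with the most similar 3 weekly differences were found by Euclidean distance among the 6050 tested genes above the floor on all arrays. For Fabp5 these were Serpina12, an adipokine of the serpin family, at a distance of 0.81 on the log2 scale, the nuclear RNA Neat1 at 1.09 and Prom1 at 1.56. The weekly values of Serpina12 were 0.14, 1.24 and 2.99, which lie below those of Fabp5 at each week. For Fabp2 the closest were Phlda1 at 0.41, Smad7, an inhibitor of TGF-beta signalling, at 0.49, and Hnmt, histamine methyltransferase, at 0.54. Phlda1 had differences of 1.16, 1.27 and 1.36.

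The members with small differences had closer matches. For Fabp1 these were Gsn, which encodes gelsolin, at 0.05, and Cyc1, a subunit of respiratory complex III, and Fbp1, a gluconeogenic enzyme, both at 0.06. For Fabp4 they were Stip1 at 0.07, Alox5ap at 0.08 and Rhog at 0.10, and for Fabp7 they were H2ax at 0.08 and Arhgef25 and Fem1b at 0.09. These likenesses rest on 3 values per gene from the same 6 arrays and carry no test.

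**Figure D4:**
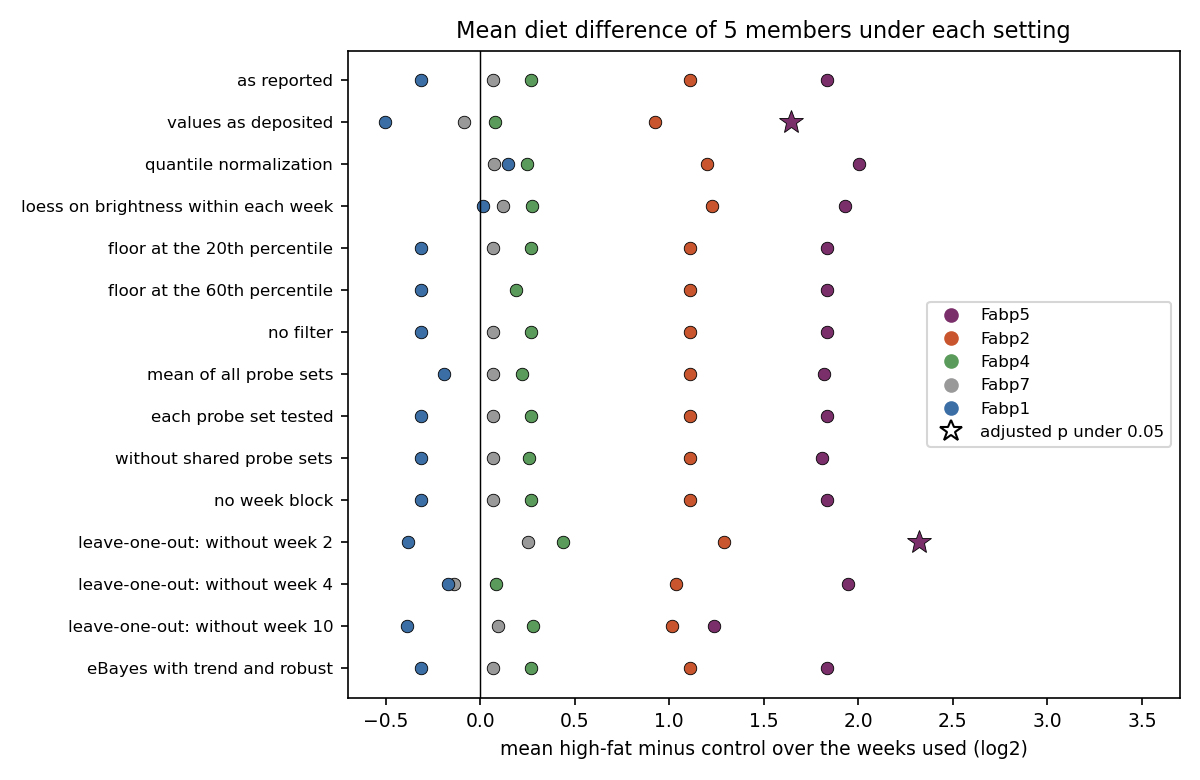
Mean high-fat minus control difference (log2) of the 5 tested members under each way of processing or choice of weeks, with a star where the adjusted limma p was under 0.05. Fabp5 and Fabp2 stay to the right of 0 in every setting, Fabp5 has a star in 2 of them, and Fabp1 and Fabp7 each change side in 2. The floor, filter, week block and eBayes settings could not move the means of Fabp5 and Fabp2.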

How the data were processed

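Liver RNA of 6 samples was measured on Affymetrix arrays, and the deposited values are linear signal intensities per probe set in 2 separately scaled tables. No source used here names the software that made them. In these deposited intensities, a mean trimmed by 2% per end was 799.7 on the control array of week 2 and from 499.6 to 499.9 on the others. Intensities were log2-transformed and centred per array on the median of 9922 probe sets above the floor on all arrays. Of 22626 shared probe sets (64 controls left out), 20380 had 1 symbol, 691 several and 1555 none here. Symbols came from the platform annotation, 20351 of them updated by gene ID through RefSeq. The brightest probe set stood for a gene, and genes past the floor on 3 or more of 6 arrays, 8846 in number, were tested with limma 3.58.1 in R 4.3.3 (lmFit, eBayes, week as a block, two-sided, Benjamini-Hochberg at 0.05). The script was tested on simulated data.

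All members are named with every probe set, the 3 closest genes for each tested member, and up to 4 genes per pathway list with the largest absolute mean difference. The list of PPAR gamma targets holds Cidec under both of its names. Ppara, Krt23 and the single cell type markers were named outside that rule after their values were seen. The members and lists were chosen with earlier results of these data known. Probe sequences were not used here, so signal shared with the pseudogenes Fabp5l2 and Fabp3-ps1 was not examined. Alternatives tried were unscaled deposited values, loess on brightness within each week, quantile normalization, a floor at the 20th or the 60th percentile, testing without a filter, the mean of a gene's probe sets, each probe set tested, probe sets shared between transcripts left out, no week block, each week left out, and eBayes with trend and robust. The differences of week 4 were also recomputed with the arrays of that week centred over the larger design. The number of arrays limits the precision.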

Additional observations from a re-analysis of the deposited data

How the results depend on the processing

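Fabp2, Fabp4 and Fabp5 kept their direction in all 14 alternatives, with means from 0.92 to 1.29, from 0.08 to 0.44 and from 1.24 to 2.32. Fabp1 kept it in 12 of 14, turning to 0.15 under quantile normalization and 0.016 under loess, and Fabp7 in 11 of 13, turning to -0.088 on the values as deposited and -0.14 without week 4, with no value at the floor of the 60th percentile. The floor, filter, week block and eBayes settings could not change the means of Fabp2 and Fabp5, which stayed at 1.11 and 1.83. An unchanged direction in these settings is therefore no sign of stability. Leaving out each week gave -0.39 to -0.17 for Fabp1, 1.01 to 1.29 for Fabp2, 0.08 to 0.44 for Fabp4, 1.24 to 2.32 for Fabp5 and -0.14 to 0.25 for Fabp7. Fabp5 passed the adjusted test on the values as deposited (1.65) and without week 2 (2.32), and the cause was not tested. The count of genes with an adjusted limma p under 0.05 was 1 as reported and 7 on the values as deposited. It was 2 with each probe set tested, and 6 to 7 with a week left out. It was 0 under quantile normalization (317 at an unadjusted p under 0.05), the floor of the 60th percentile (283), no filter (503), the mean of probe sets (376) and no week block (56). Of 148 recomputed weekly differences, 138 stayed within 1.5-fold and 10 did not. Some of the 138 could not move, so the count is no measure of stability. Among them are those of Fabp6, which was at the floor, and those of Fabp2 under another floor or the mean of its probe sets. On the values as deposited, whose control array of week 2 is scaled higher and moves the median of all genes to -0.67, week 2 gave -0.84 for Fabp1, 0.09 for Fabp2, -0.74 for Fabp4 and 0.19 for Fabp5. At week 4 Fabp1 was 0.23 under quantile normalization and 0.04 under loess. With the week 4 arrays centred over the larger design, Fabp1 was -0.12, Fabp2 1.74, Fabp4 1.11, Fabp5 2.09 and Fabp7 0.96 at week 4. Under this centring Fabp4 passed 2-fold at week 4. The other Fabp4 probe sets gave 0.00, 0.00 (both arrays at the floor) and 1.34 at week 4 and at least 1.13 at week 10. The fit as reported pairs the diets by week, and the labels used here give no replicate numbers. Signals near the floor limit Fabp3, Fabp6, Fabp7 and most Fabp4 probe sets.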
